A study of Mus musculus with 12 samples.

Results

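The 36 genes described here encode NRF2, its inhibitor KEAP1 and enzymes that remove reactive oxygen species, rebuild glutathione and thioredoxin, or conjugate reactive compounds. They are members of one functional set, chosen by name, and all 36 are among the 28689 genes of the table. All 36 also had at least 1 FPKM (fragments per kilobase of gene length, corrected for the size of the library) in at least 6 of the 12 libraries, so all 36 were tested among 12467 genes.

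NRF2, the product of Nfe2l2, is a transcription factor that KEAP1 binds in the cytoplasm and hands to a CUL3 ubiquitin ligase for degradation. When oxidants and electrophiles modify KEAP1, NRF2 builds up, pairs with a small MAF protein and binds antioxidant response elements near genes such as Hmox1, Nqo1, Gclc, Gclm, Srxn1 and Txnrd1. In endothelial cells these enzymes are known for limiting peroxide and superoxide, the latter of which consumes nitric oxide. Because NRF2 is controlled largely through its degradation, the mRNA of Nfe2l2 is not a measure of its activity.

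RNA was sequenced from mouse lung endothelial cells (MLECs) in 12 libraries, 6 of CTR mice and 6 of dKO mice. dKO mice were VE-CAD-CreERT2+ /Sp1 fl/fl/Sp3 fl/fl animals, in which tamoxifen activates Cre in cells that use the VE-cadherin promoter, that is endothelial cells, to delete the transcription factor genes Sp1 and Sp3. CTR mice were VE-CAD-CreERT2- /Sp1 fl/fl/Sp3 fl/fl littermates, labelled WT, which carry the same floxed alleles and received the same tamoxifen. The values used for dKO are deposited under the name TAM. They were taken as dKO because CTR names the control mice and no other group is labelled. MLECs were pulled from digested lungs with beads against CD31 and then intercellular adhesion molecule 2, and were cultured, so other lung cells can remain. The number of mice behind a library is not given, and p-values therefore measure the spread between these libraries.

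Libraries held 15523054 to 17938286 fragments on genes, and the 36 genes were read with 51 to 54030 fragments in a library. Sp1 had 19.4 to 23.7 FPKM in CTR and 8.42 to 12.1 FPKM in dKO libraries without overlap, with a log2 fold change of −0.95 (adjusted p = 5.68e-06 by limma). Sp3 had 24.2 to 31.1 FPKM in CTR and 22.5 to 26.9 FPKM in dKO libraries, with a log2 fold change of −0.14 (adjusted p = 0.0902 by limma; −0.18 and 0.0326 without CTR replicate 6). Both genes were measured as a whole, with the deleted exons not separated, so RNA left after the deletion can still be counted. For protein, the paper reports less Sp1 and Sp3 by immunofluorescence in the aortic endothelium of dKO mice. Several marker lists moved with the genotype, where 53.1% of all genes tested differed between the groups. Of 10 endothelial markers, 10 were higher in dKO, and their summed level was 207 to 327 FPKM in CTR and 386 to 528 FPKM in dKO libraries. Of 10 macrophage markers 9 were higher and 1 lower (822 to 1368 FPKM summed in CTR, 2344 to 5359 FPKM in dKO), and of 9 tested fibroblast markers 1 was higher and 4 lower (2164 to 2744 FPKM, against 856 to 1683 FPKM). Of 6 tested mesothelial markers 5 were higher, and 5 of 5 tested leukocyte markers were. Of 7 tested smooth muscle markers and of 9 tested lung epithelial markers, 1 each was higher and none lower. Each retina and red cell marker in the table stayed under 1 FPKM in all libraries, although the labels' extraction protocol speaks of retinas. The part of these other cells in the results below was not tested, and more cells of a type cannot be told apart from more RNA per cell in these bulk libraries.

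Between dKO and CTR MLECs, 15 of the 36 genes differed at an adjusted p under 0.05 (limma on log2(FPKM + 1), Benjamini-Hochberg over the 12467 genes tested), 9 higher and 6 lower in dKO. The same threshold was passed by 53.1% of all genes tested, 20.4% higher and 32.6% lower, so the share of 41.7% among the antioxidant genes was below that background. limma-voom on fragments recovered from the FPKM called 15 of the 36 and 53.0% of all genes. With median-of-ratios scaling, 18 of the 36 passed, 12 higher and 6 lower, while the higher share of all called genes moved from 38.5% to 51.7%. With quantile normalization, 13 of the 36 passed, 6 higher and 7 lower, with Cat, Gclc and Prdx1 lost and Sod1 added. Only 6 of the 36 also changed by over 1.5-fold (17.9% of all genes tested, 8.92% higher and 8.98% lower): Hmox1, Mgst3, Gpx1 and Gpx8 were higher, and Gpx7 and Nfe2l2 were lower. The libraries of the 2 groups did not overlap for 6 genes (27.4% of all genes tested), namely Prdx5 and Mgst3, which were higher, and Nfe2l2, Prdx4, Gpx7 and Me1, which were lower. The median log2 fold change of the 36 genes was 0.16, beside −0.10 over all genes tested. Called genes went both ways within the peroxiredoxins (2 higher, 2 lower) and the glutathione peroxidases (2 higher, 1 lower), as the plot of fold changes by role shows.

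**Figure D1:**
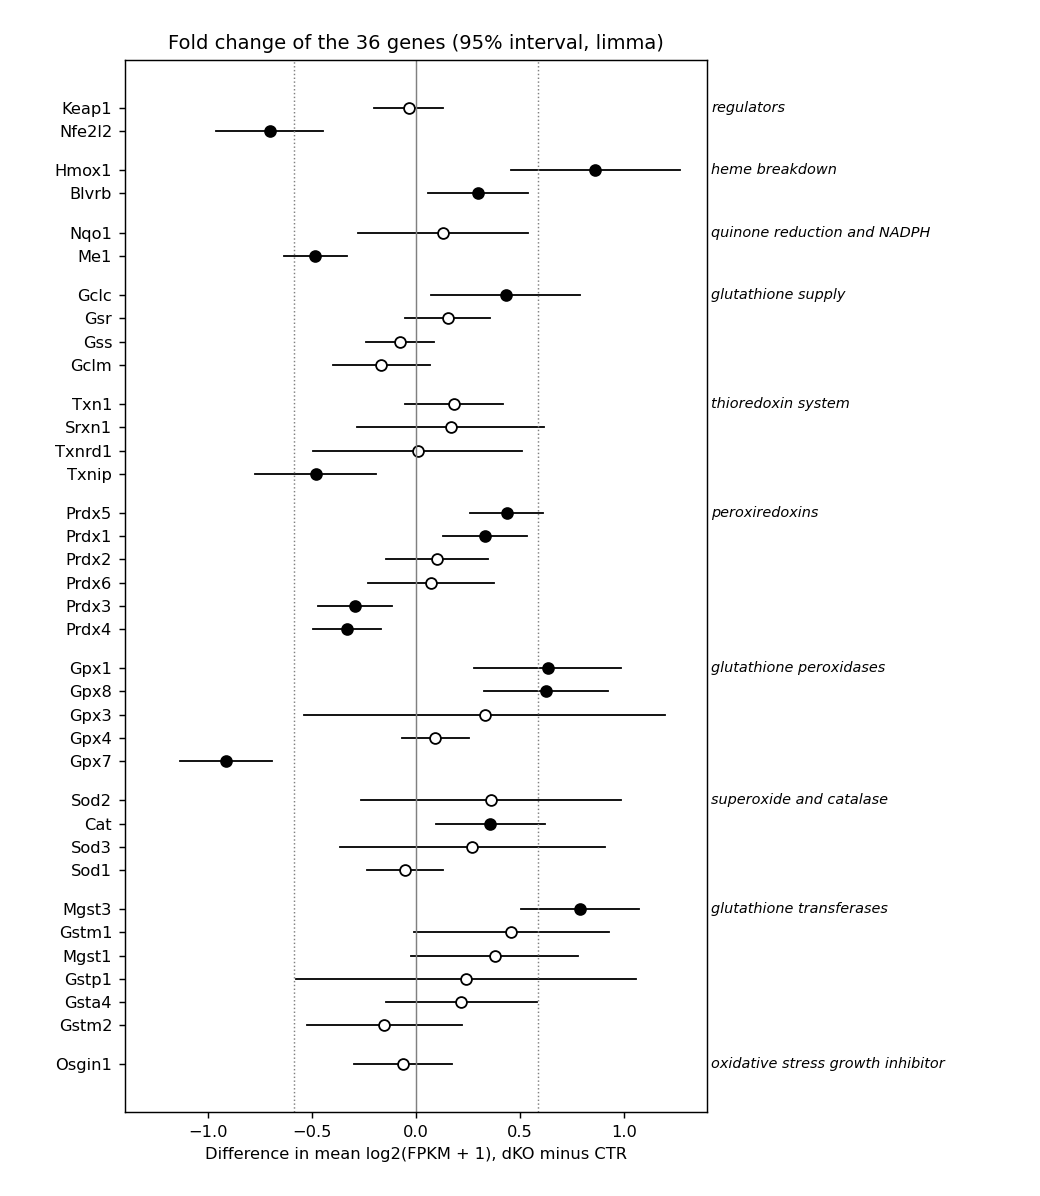
Fold change of each of the 36 genes between dKO and CTR MLECs, as the difference in mean log2(FPKM + 1) with its 95% interval from limma, grouped by role (n = 6 libraries a group). Filled circles mark the 15 genes with an adjusted p under 0.05, open circles the 21 others, and dotted lines a 1.5-fold change. Gpx7 lies lowest at −0.91 and Hmox1 highest at 0.86.

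Nfe2l2 itself was lower in dKO MLECs, while Keap1 did not pass the test. Nfe2l2 (ENSMUSG00000015839, chromosome 2, 75504739 to 75534985, minus strand, GRCm39) had 71.5, 64.7, 76.2, 64.6, 88.4 and 109.9 FPKM in CTR replicates 1 to 6. In dKO replicates 1 to 6 it had 50.8, 43.0, 49.1, 43.2, 49.9 and 48.7 FPKM. All 6 dKO values were under the lowest CTR value, and the dKO values lay closer together (SD 3.44 FPKM, n = 6) than the CTR values (SD 17.4 FPKM, n = 6). The log2 fold change was −0.70 (standard error, SE, 0.12; adjusted p = 0.000337 by limma; two-sided exact permutation p = 0.00216, the smallest that 6 against 6 libraries can give). CTR replicate 6, the CTR library with the most Nfe2l2 mRNA, was also the one with the most Hmox1. Among the antioxidant genes, however, that library was the highest CTR library for 5 and the lowest for 14, Gclm among the latter. Of all genes tested, it was the highest CTR library for 25.2% and the lowest for 24.8%. Whether Nfe2l2 mRNA and its targets vary together between libraries was not tested.

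Keap1 (ENSMUSG00000003308, chromosome 9, 21141026 to 21150679, minus strand) had 10.8, 11.1, 9.88, 11.0, 10.7 and 9.0 FPKM in CTR replicates 1 to 6. In dKO replicates 1 to 6 it had 8.77, 9.86, 11.9, 11.1, 9.55 and 9.81 FPKM. The groups overlapped, and the 95% interval of the log2 fold change ran from −0.20 to 0.13 around −0.03 (adjusted p = 0.72 by limma). That value turned to 0.05 with median-of-ratios scaling and 0.02 with quantile normalization, so it has no direction.

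The promoter of Nfe2l2 is shown because the gene encodes the factor that gives the set its name and was among the 6 whose groups did not overlap. The promoters of Gpx7, Me1 and Mgst3, also among those 6, and of Gclm, a textbook NRF2 target that did not pass the test, stand beside it. Those of Prdx4 and Prdx5, the others of the 6, held 0 cores, with 3 and 1 GC boxes, and are not printed for brevity. Me1 has 2 windows in the table, of which the one printed holds matches and the other (chr9:86569281-86569580) holds 0 cores and 0 GC boxes. Each runs from 250 bases before to 50 bases after the annotated start, read 5′ to 3′ on the strand of the gene, from RefSeq (GRCm38.p6), and each was found once in GRCm39 at the position given. Capitals mark the antioxidant response element core TGACNNNGC and the GC box GGGCGG, to which Sp1 and Sp3 bind, on either strand (GCNNNGTCA and CCGCCC on the other strand).
Nfe2l2, chr2:75534958-75535257, minus strand: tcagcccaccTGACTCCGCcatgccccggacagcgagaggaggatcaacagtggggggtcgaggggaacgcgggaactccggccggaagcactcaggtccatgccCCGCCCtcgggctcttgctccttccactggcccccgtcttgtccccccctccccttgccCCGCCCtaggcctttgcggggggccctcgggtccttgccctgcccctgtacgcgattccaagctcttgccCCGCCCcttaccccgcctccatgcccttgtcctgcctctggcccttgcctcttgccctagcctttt
Me1, chr9:86577918-86578217, minus strand: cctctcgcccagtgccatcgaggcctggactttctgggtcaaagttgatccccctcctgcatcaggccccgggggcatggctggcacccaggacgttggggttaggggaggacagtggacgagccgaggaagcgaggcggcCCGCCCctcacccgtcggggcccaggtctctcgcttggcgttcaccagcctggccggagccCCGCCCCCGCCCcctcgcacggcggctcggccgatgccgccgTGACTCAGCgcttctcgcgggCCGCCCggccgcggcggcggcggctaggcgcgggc
Gclm, chr3:122038956-122039255, plus strand: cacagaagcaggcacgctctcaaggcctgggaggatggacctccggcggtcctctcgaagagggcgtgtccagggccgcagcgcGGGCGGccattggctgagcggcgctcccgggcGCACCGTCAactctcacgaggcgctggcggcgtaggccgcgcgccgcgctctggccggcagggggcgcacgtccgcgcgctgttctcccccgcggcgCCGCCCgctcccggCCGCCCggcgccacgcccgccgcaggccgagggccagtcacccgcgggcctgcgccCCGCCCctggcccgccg
Gpx7, chr4:108263861-108264160, minus strand: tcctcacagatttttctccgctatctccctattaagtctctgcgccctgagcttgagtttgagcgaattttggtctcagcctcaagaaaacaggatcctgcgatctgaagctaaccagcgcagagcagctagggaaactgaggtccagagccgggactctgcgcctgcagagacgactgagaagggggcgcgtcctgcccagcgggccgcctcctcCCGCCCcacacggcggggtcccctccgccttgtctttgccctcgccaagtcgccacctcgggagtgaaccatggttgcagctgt
Mgst3, chr1:167221361-167221660, minus strand: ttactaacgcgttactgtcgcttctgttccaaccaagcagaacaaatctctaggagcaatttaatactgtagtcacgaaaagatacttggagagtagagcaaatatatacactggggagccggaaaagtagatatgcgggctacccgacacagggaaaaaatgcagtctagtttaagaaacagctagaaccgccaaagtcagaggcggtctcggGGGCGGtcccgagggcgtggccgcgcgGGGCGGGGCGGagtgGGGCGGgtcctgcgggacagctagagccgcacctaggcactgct
The Nfe2l2 window held 1 core (TGACTCCGC) and 3 GC boxes, and the printed Me1 window 1 core (TGACTCAGC) and 4 GC boxes. The Gclm window held 1 core and 4 GC boxes. In the Gpx7 window there were 0 cores and 1 GC box, and in the Mgst3 window 0 cores and 4 GC boxes, a pair of which share a base.

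Among the 36 genes, 30 had an entry in the promoter table. Of these, 8 (26.7%) held TGACNNNGC in at least 1 window, as did 14.0% of all genes in the table and 17.1% of the tested ones. The core read TGACTCCGC at Nfe2l2, TGACTCAGC at both Me1 and Prdx1, TGACGGTGC at Gclm, TGACCTAGC at Srxn1, TGACCGTGC at Mgst1, TGACAAAGC at Txnrd1 and TGACCACGC at Sod1. Of these 8 genes, 1 was higher in dKO (Prdx1), 2 were lower (Nfe2l2 and Me1) and 5 did not pass the test. GGGCGG was found in 27 of the 30 (90%), beside 38.2% of all genes in the table and 70.0% of the tested ones. It was found in 6 of the 7 higher, 6 of the 6 lower and 15 of the 17 other genes with an entry. These matches are descriptions of 300 bases and not evidence of binding, and response elements can lie outside them. Hmox1, Gclc, Gsr, Prdx6, Sod3 and Gsta4 had no entry.

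Both enzymes of heme breakdown among the 36 genes were higher in dKO MLECs. Hmox1 (ENSMUSG00000005413, chromosome 8, 75820241 to 75827217, plus strand) encodes heme oxygenase 1, the inducible enzyme that opens heme to biliverdin, carbon monoxide and iron. It had 96.7, 118 and 167 FPKM as lowest, median and highest in CTR libraries, and 161, 218 and 359.9 FPKM in dKO libraries. In 5 of 6 dKO libraries the value lay above the CTR range, and dKO replicate 4 lay below the highest CTR library. The log2 fold change was 0.86 (SE 0.19, adjusted p = 0.00205 by limma), or 0.73 without dKO replicate 1. Hmox1 is also highly used by macrophages, of which 9 of 10 markers were higher in dKO. Among dKO libraries, replicate 1 had the most Hmox1 and replicate 3 the highest summed macrophage markers, and the part of macrophages in the rise of Hmox1 was not tested. Blvrb, a biliverdin reductase, had 9.97, 12.5 and 15.2 FPKM in CTR and 13.7, 15.4 and 19.2 FPKM in dKO libraries. Its log2 fold change was 0.30 (adjusted p = 0.0379 by limma), and it lost its call in 11 of 23 alternatives. Among those were the fits without CTR replicate 2, 3, 5 or 6 and without dKO replicate 1, 3, 4 or 6, with an adjusted p of up to 0.0838. Of their relatives outside the 36, named after their values were seen, the constitutive heme oxygenase Hmox2 had a log2 fold change of 0.18 (adjusted p = 0.0367 by limma). That call was lost in 9 of 23 alternatives, among them the fits without CTR replicate 1, 2, 5 or 6 and without dKO replicate 3, 4 or 6. The other biliverdin reductase, Blvra, did not pass the test (0.13, adjusted p = 0.289 by limma).

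The quinone and NADPH enzymes did not move together. Nqo1 encodes a quinone reductase that is widely used as a reporter of NRF2 activity. It had 11.8, 18.8 and 27.7 FPKM in CTR and 15.4, 19.2 and 27.2 FPKM in dKO libraries, which overlapped fully. Its log2 fold change was 0.13 with a 95% interval from −0.28 to 0.54 (adjusted p = 0.581 by limma). Me1 (ENSMUSG00000032418, chromosome 9, 86462646 to 86578104, minus strand), cytosolic malic enzyme, makes NADPH. It had 20.4, 21.9 and 26.0 FPKM in CTR and 15.1, 16.0 and 16.9 FPKM in dKO libraries. Me1 was lower in each dKO library than in each CTR library, with a log2 fold change of −0.48 (SE 0.07, adjusted p = 0.000107 by limma). Its exons overlap Rwdd2a on the other strand, which had 1.12 FPKM on average in CTR and 1.25 FPKM in dKO.

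Of the 4 genes of glutathione supply, 1 passed the test. Gclc, the catalytic subunit of the enzyme that sets the rate of glutathione synthesis, had 32.6, 44.5 and 56.2 FPKM in CTR and 42.6, 61.0 and 86.7 FPKM in dKO libraries. The groups overlapped, 4 of 6 dKO libraries lay above all CTR libraries, and the log2 fold change was 0.43 (adjusted p = 0.0427 by limma). This call was lost in 12 of 23 alternatives, among them the fits without CTR replicate 2, 4, 5 or 6 and without dKO replicate 1, 2, 5 or 6, with an adjusted p of up to 0.0858. Gclm, the modifier subunit of the same enzyme, had 10.4, 12.6 and 15.9 FPKM in CTR and 9.60, 10.7 and 14.7 FPKM in dKO libraries (log2 fold change −0.17, adjusted p = 0.208 by limma; −0.24 and 0.0497 without dKO replicate 4). The 2 subunits thus had values of opposite sign, of which only that of Gclc passed the test. Gsr, which reduces oxidized glutathione, and Gss, glutathione synthetase, had log2 fold changes of 0.15 and −0.08 (adjusted p = 0.189 and 0.41 by limma), and Gsr passed the test with median-of-ratios scaling (0.24, adjusted p = 0.0488). Gclm values are uncertain, because the annotated Gclm transcripts include sequence that is nearly identical to Ppia and its pseudogenes, the highest of which had 299.7 FPKM in a library.

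In the thioredoxin system, Txnip alone passed the test. Txnip encodes an inhibitor of thioredoxin whose mRNA is known to follow glucose. It had 50.1, 61.2 and 86.3 FPKM in CTR and 38.3, 43.4 and 57.1 FPKM in dKO libraries. In 4 of 6 dKO libraries the value lay below the CTR range, and the log2 fold change was −0.48 (SE 0.14, adjusted p = 0.00947 by limma). Txn1, cytosolic thioredoxin and after Gpx3 the most abundant of the 36 mRNAs per length in CTR, had 163, 185 and 249.6 FPKM in CTR and 189, 218 and 267 FPKM in dKO libraries (log2 fold change 0.18, adjusted p = 0.172 by limma; 0.26 and 0.0416 without CTR replicate 1). Txn1 also passed with median-of-ratios scaling (0.28, adjusted p = 0.0442) and with the replicate number as a block.

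Txnrd1, thioredoxin reductase, and Srxn1, which repairs overoxidized peroxiredoxins, are both established NRF2 targets, and neither passed the test. Txnrd1 had 31.2, 49.1 and 71.7 FPKM in CTR and 33.9, 45.9 and 89.4 FPKM in dKO libraries. Srxn1 had 25.7, 29.3 and 47.3 FPKM in CTR and 24.9, 32.5 and 65.8 FPKM in dKO libraries. Replicate 1 was the highest of its group for both genes and in both groups. Their log2 fold changes were 0.01 and 0.17, and without dKO replicate 1 they were −0.16 and −0.01. The sign of Txnrd1 turned in 7 of 23 alternatives, whereas that of Srxn1 turned only in the fit without dKO replicate 1. The 95% intervals, from −0.49 to 0.51 for Txnrd1 and from −0.28 to 0.61 for Srxn1, include 0 and changes in both directions.

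**Figure D2:**
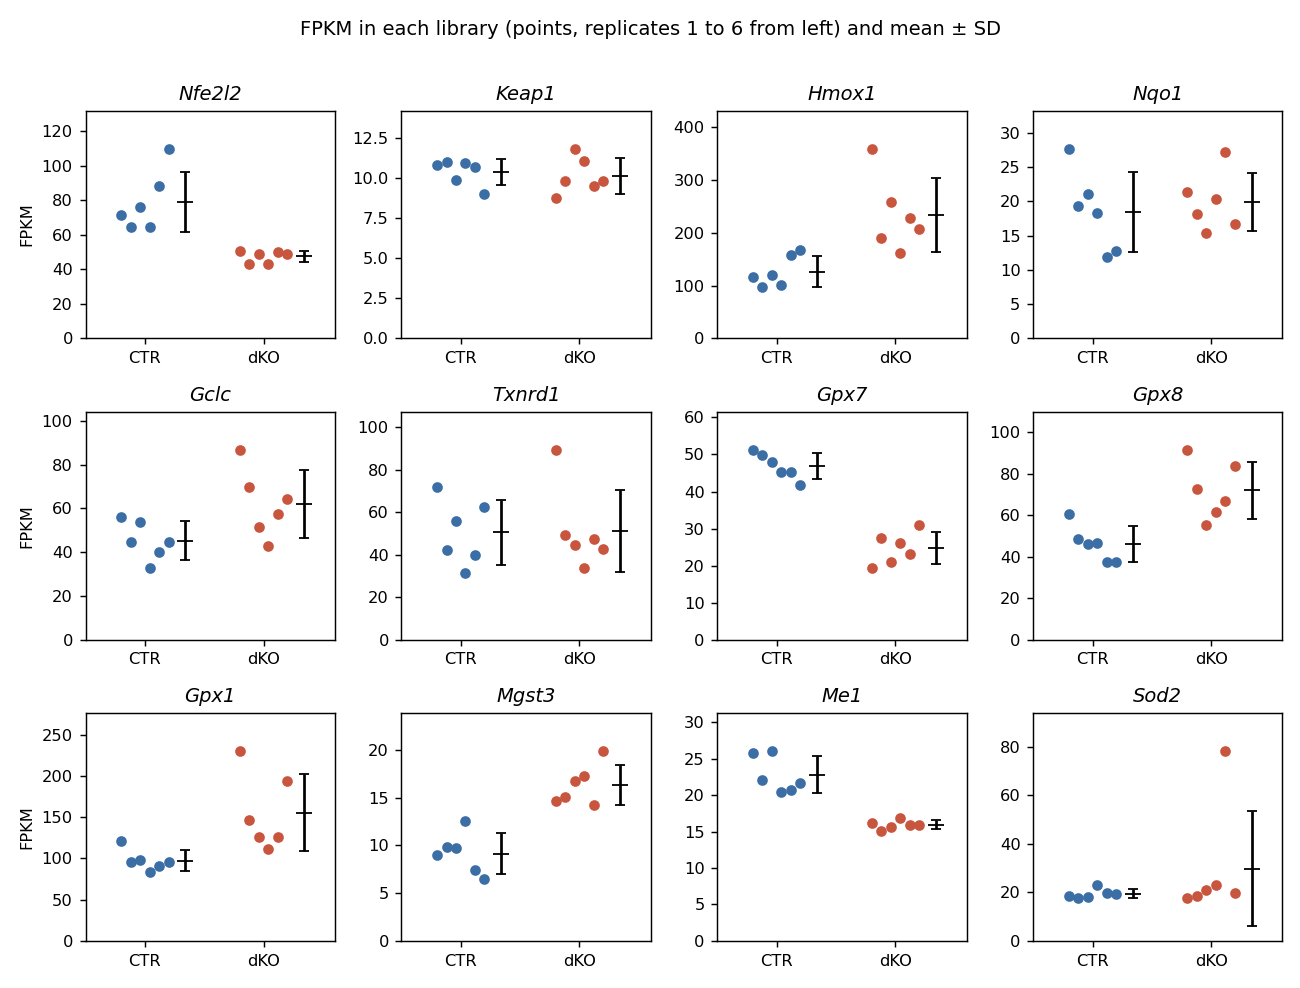
FPKM of 12 of the 36 genes in each library, CTR on the left and dKO on the right of each panel, with replicates 1 to 6 from left to right and the mean ± SD beside them (n = 6 a group). Nfe2l2, Gpx7 and Me1 are lower and Mgst3 is higher in every dKO library, Keap1, Nqo1 and Txnrd1 overlap, and Sod2 stands apart in dKO replicate 5 with 78.1 FPKM.

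The peroxiredoxins, thiol enzymes that reduce peroxides, split by member. Prdx5 and Prdx1 were higher, Prdx3 and Prdx4 were lower, and Prdx2 and Prdx6 did not pass the test. Prdx5 (ENSMUSG00000024953, chromosome 19, 6884065 to 6887792, minus strand), found in mitochondria, peroxisomes and cytosol, had 63.6, 70.1 and 85.8 FPKM in CTR and 87.3, 95.9 and 113 FPKM in dKO libraries. All 6 dKO values exceeded the highest CTR value, with a log2 fold change of 0.44 (SE 0.08, adjusted p = 0.000674 by limma). Of the exon bases of Prdx5, 29.2% overlap Trmt112 on the other strand, which had 23.6 FPKM on average in CTR and 17.8 FPKM in dKO; the use of strand in counting is not stated.

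Prdx4 (ENSMUSG00000025289, chromosome X, 154106813 to 154123750, minus strand), the peroxiredoxin of the endoplasmic reticulum, had 36.1, 38.2 and 42.1 FPKM in CTR and 25.8, 31.3 and 33.7 FPKM in dKO libraries. The groups did not overlap, and the log2 fold change was −0.33 (SE 0.08, adjusted p = 0.00262 by limma). Prdx3, the mitochondrial member, had 49.2, 58.4 and 63.9 FPKM in CTR and 41.6, 44.7 and 53.3 FPKM in dKO libraries, and 5 of 6 dKO libraries lay below all CTR libraries. Its log2 fold change was −0.29 (adjusted p = 0.0101 by limma). Prdx1, the abundant cytosolic member, had 121, 134 and 165 FPKM in CTR and 153, 166 and 207 FPKM in dKO libraries, with a log2 fold change of 0.33 (adjusted p = 0.00942 by limma). The groups overlapped for Prdx1, and 4 of 6 dKO libraries lay above the CTR range. The Prdx1 call was lost with quantile normalization (log2 fold change 0.18, adjusted p = 0.0596 by limma). Prdx2 and Prdx6 had log2 fold changes of 0.10 and 0.07 (adjusted p = 0.467 and 0.681 by limma), of which that of Prdx6 turned to −0.07 with quantile normalization.

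Of the glutathione peroxidases, Gpx7 fell, Gpx1 and Gpx8 rose, and Gpx3 and Gpx4 did not pass the test. Gpx7 (ENSMUSG00000028597, chromosome 4, 108257583 to 108264158, minus strand) encodes a peroxidase of the endoplasmic reticulum that works with protein disulfide isomerase. It had 51.2, 49.8, 48.0, 45.3, 45.2 and 41.8 FPKM in CTR replicates 1 to 6. In dKO replicates 1 to 6 it had 19.4, 27.3, 20.9, 26.2, 23.3 and 30.9 FPKM. The highest dKO library lay below the lowest CTR library, and the log2 fold change was −0.91 (SE 0.10, adjusted p = 1.67e-05 by limma; two-sided exact permutation p = 0.00216). Of 9 tested fibroblast markers, 4 were lower in dKO, 1 was higher and 4 did not pass the test, beside 32.6% lower among all genes tested. Within the groups the order differed: dKO replicate 1 had both the lowest Gpx7 and the lowest summed fibroblast markers of its group (856 FPKM), whereas CTR replicate 1 had the highest Gpx7 and the lowest summed markers of its group (2164 FPKM). The part of fibroblasts in the fall of Gpx7 was not tested.

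Gpx8, the other peroxidase of the endoplasmic reticulum, went the opposite way to Gpx7. Gpx8 (ENSMUSG00000021760, chromosome 13, 113178829 to 113183292, minus strand) had 37.5, 46.4 and 60.7 FPKM in CTR and 55.2, 69.7 and 91.4 FPKM in dKO libraries. In 5 of 6 dKO libraries the value lay above the CTR range, with a log2 fold change of 0.63 (SE 0.14, adjusted p = 0.0022 by limma). Gpx1 (ENSMUSG00000063856, chromosome 9, 108216102 to 108217546, plus strand), the main cytosolic selenium peroxidase, had 83.2, 95.6 and 121 FPKM in CTR and 111, 136 and 230.2 FPKM in dKO libraries. Here too 5 of 6 dKO libraries lay above all CTR libraries, and the log2 fold change was 0.63 (SE 0.16, adjusted p = 0.00597 by limma). Both Gpx1 and Gpx8 were highest in replicate 1 of each group. Neither passed 1.5-fold without dKO replicate 1, without dKO replicate 6 or with quantile normalization, although both kept an adjusted p under 0.05 there.

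Gpx3, the secreted plasma peroxidase, had the highest FPKM of the 36 genes in CTR and varied most between CTR libraries. It had 337, 633 and 1706 FPKM in CTR and 342, 879 and 1429 FPKM in dKO libraries, and replicate 4 was the highest in both groups. The log2 fold change was 0.33, but with a 95% interval from −0.54 to 1.2 (adjusted p = 0.507 by limma). Gpx4, which reduces lipid peroxides and guards against ferroptosis, had 170.0, 184 and 189 FPKM in CTR and 175, 189 and 240.0 FPKM in dKO libraries. Its log2 fold change was 0.09 with a 95% interval from −0.07 to 0.25 (adjusted p = 0.312 by limma), and −0.02 with quantile normalization. A pseudogene, Gpx4-ps2, which is 99.6% identical to Gpx4 over 555 bases, was listed at 119 FPKM on average in CTR and 126 FPKM in dKO, so the level of Gpx4 is uncertain.

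Of the superoxide dismutases and catalase, only catalase passed the test. Cat, which breaks down peroxide in peroxisomes, had 31.5, 48.8 and 54.4 FPKM in CTR and 51.7, 58.3 and 67.4 FPKM in dKO libraries. In 5 of 6 dKO libraries the value lay above the CTR range, and the log2 fold change was 0.36 (SE 0.12, adjusted p = 0.0255 by limma). The call of Cat was lost in 4 of 23 alternatives, with adjusted p = 0.0553 without CTR replicate 5 and 0.056 without dKO replicate 3. Sod1, the cytosolic copper and zinc enzyme, had 123, 136 and 167 FPKM in CTR and 128, 134 and 150.5 FPKM in dKO libraries (log2 fold change −0.05, adjusted p = 0.605 by limma). That value was 0.04 with median-of-ratios scaling and −0.21 with quantile normalization (adjusted p = 0.0243), so the direction of Sod1 turns with the scaling, and 48.8% of the exon bases of Sod1 overlap Scaf4 on the other strand.

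Sod2, the mitochondrial manganese enzyme, had 17.8, 19.0 and 23.0 FPKM in CTR and 17.8, 20.3 and 78.1 FPKM in dKO libraries. The high value came from dKO replicate 5 alone, and the other dKO libraries reached at most 23.1 FPKM. With that library the log2 fold change was 0.36 (95% interval from −0.27 to 0.99, adjusted p = 0.31 by limma). Without dKO replicate 5 it was 0.04 (adjusted p = 0.709 by limma). Sod3, the extracellular enzyme, had 10.7, 14.4 and 23.2 FPKM in CTR and 7.6, 19.9 and 33.7 FPKM in dKO libraries (log2 fold change 0.27, adjusted p = 0.456 by limma). Among dKO libraries, replicate 1 was the lowest for both Sod3 and Gpx3, the other secreted enzyme of the set, whereas the lowest CTR library was replicate 3 for Sod3 and replicate 6 for Gpx3.

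Among the glutathione transferases, which conjugate glutathione to reactive compounds, Mgst3 passed the test and 5 did not. Mgst3 (ENSMUSG00000026688, chromosome 1, 167196550 to 167221687, minus strand), a microsomal member that also reduces lipid peroxides, had 8.95, 9.82, 9.75, 12.5, 7.40 and 6.43 FPKM in CTR replicates 1 to 6. In dKO replicates 1 to 6 it had 14.6, 15.0, 16.7, 17.3, 14.3 and 19.9 FPKM. All 6 dKO values exceeded the highest CTR value, with a log2 fold change of 0.79 (SE 0.13, adjusted p = 0.000306 by limma; two-sided exact permutation p = 0.00216). Gstm1 had 54.6, 91.7 and 173 FPKM in CTR and 99.98, 132 and 158 FPKM in dKO libraries (log2 fold change 0.46, adjusted p = 0.0909 by limma). Gstm1 and Mgst1 (log2 fold change 0.38, adjusted p = 0.102 by limma) both passed the test without CTR replicate 4 (0.63 and 0.51, adjusted p = 0.00696 and 0.015), which held the highest CTR value of each, and Gstm1 also with median-of-ratios scaling (0.55, adjusted p = 0.0488). Gstp1 had 7.68 to 27.0 FPKM in CTR and 3.98 to 21.0 FPKM in dKO libraries, and its log2 fold change of 0.24 had a 95% interval from −0.58 to 1.06. Gsta4 and Gstm2 had log2 fold changes of 0.22 and −0.15 (adjusted p = 0.291 and 0.474 by limma). Osgin1, an NRF2-induced growth inhibitor, had 4.25 to 5.87 FPKM in CTR and 3.76 to 6.60 FPKM in dKO libraries (log2 fold change −0.06, adjusted p = 0.647 by limma), and this value turned positive with 2 of the scalings.

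Several of the 36 genes share sequence with other genes. For 13 of them a gene elsewhere had a stretch of 150 bases or longer with 95% identity, and for 11 the stretch made up no less than 50% of that gene's own transcript. Nfe2l2 was among those with shorter shares only: 48 genes of the table shared such a stretch with it, the highest at 43.5 FPKM in a library, and their part in its level was not tested. For 8 of the 11 the copy exceeded 1 FPKM in a library. These 8 were Gclm, Prdx1, Gpx4, Sod1, Sod2, Gstm1, Gstm2 and Gstp1, so their levels are uncertain. Of the 15 genes called, Prdx1 is the only one among these 8, and its copy Gm21399 had 6.08 FPKM on average in CTR and 7.77 FPKM in dKO. The exons of 7 of the 36 genes overlap a gene on the other strand with over 1 FPKM on average in a group: Gss, Prdx2, Prdx4, Prdx5, Gpx3, Sod1 and Me1. The overlap covered 85.0% of the exon bases of Gpx3, whose partner Tnip1 had 16.4 FPKM on average in CTR and 23.4 FPKM in dKO.

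CTR replicate 1 was the highest CTR library for 19 of the 36 genes, as it was for 21.2% of all genes tested. CTR replicate 6 was the lowest for 14 of the 36 (24.8% of all genes tested), and dKO replicate 1 the highest of its group for 15 (32.8%) and the lowest for 9 (20.3%). For 15 of the 36 (41.7%) the same replicate number was highest in both groups, as for 25.9% of all genes tested. The same number was lowest in both groups for 6 of the 36, as for 26.2% of all genes tested. Replicate 1 led in both groups for 10 genes, which were Gclc, Gss, Txn1, Txnrd1, Srxn1, Prdx1, Gpx1, Gpx8, Gsta4 and Gstp1. Replicate 4 led in both for the other 5, which were Gclm, Txnip, Gpx3, Gstm2 and Mgst1. The summed lung epithelial markers were also highest in replicate 4 of each group (556 FPKM in CTR and 391 FPKM in dKO, against at most 280.1 and 329.6 FPKM in the other libraries), and no more than 1 of 9 such markers differed between the groups. The summed smooth muscle markers were highest in CTR replicate 6 (1464 FPKM) and dKO replicate 1 (888 FPKM). Their part in these patterns was not tested. The median coefficient of variation of the 36 genes was 15.1% in CTR and 16.3% in dKO, beside 13.8% and 14.2% over all genes tested.

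**Figure D3:**
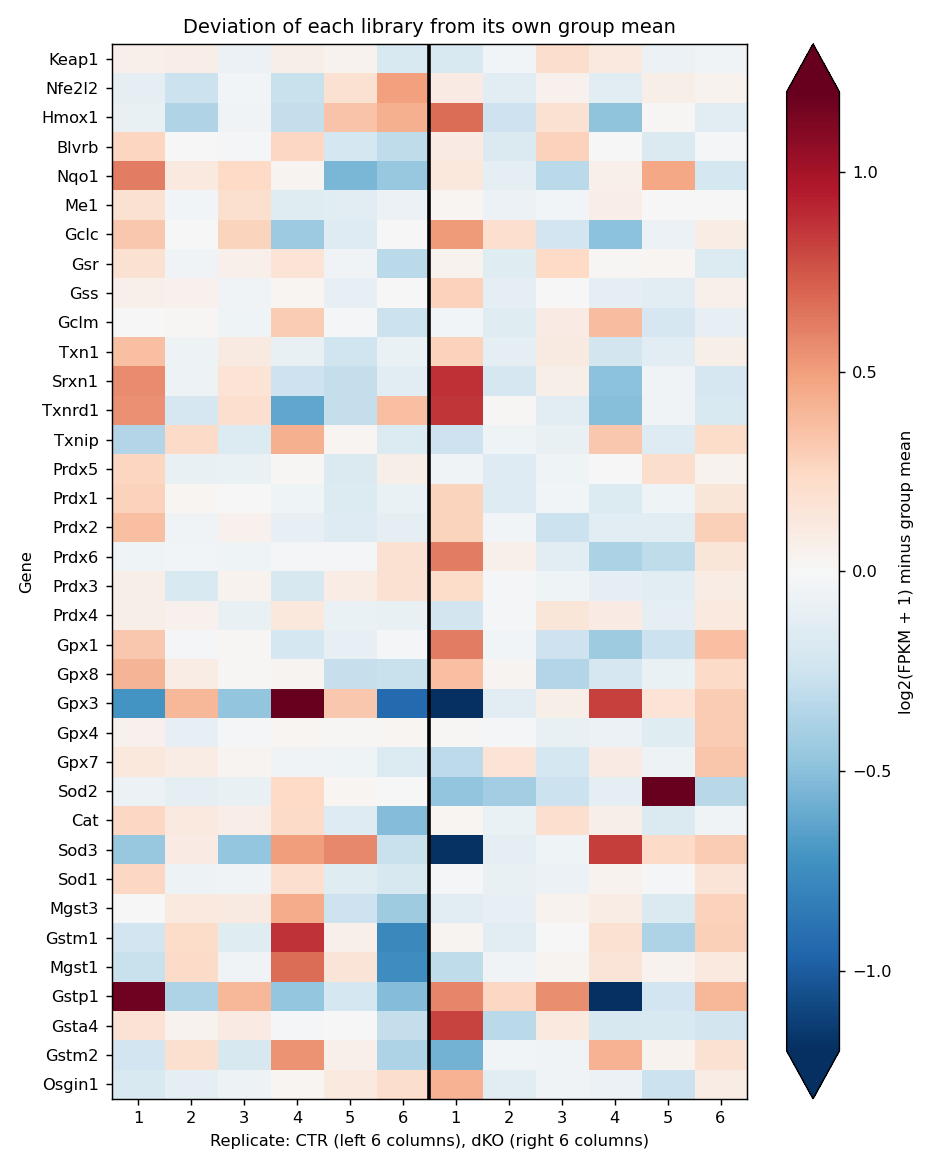
Deviation of each library from the mean of its own group for the 36 genes, in log2(FPKM + 1), with CTR replicates 1 to 6 in the left columns and dKO replicates 1 to 6 in the right ones. Red is above and blue below the group mean, and values beyond 1.2 either way take the end colour. CTR replicate 1 is above its group mean for 24 of the 36 genes (46.5% of all genes tested), dKO replicate 6 for 24 (52.0%) and dKO replicate 1 for 23 (56.3%), and Sod2 stands out in dKO replicate 5.

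Other genes of the pathway were taken from lists of 122 names, of which 120 are in the table and 97 were tested. Of these 97, 55 passed the test (56.7%, near the 53.1% of all genes tested), 27 higher and 28 lower, with a median log2 fold change of 0.00. The directions depended on the scaling. With median-of-ratios scaling 50 passed, 32 higher and 18 lower, and 45 of them were among the 55. With quantile normalization 52 passed, 26 higher and 26 lower. Among regulators of NRF2, 3 of 11 were higher and 3 lower. The small MAF partners Maff and Mafk, named here after their values were seen, were higher, with log2 fold changes of 0.91 and 0.58 (adjusted p = 0.000234 and 0.000285 by limma). Their relative Mafg was lower, at −0.33 (adjusted p = 0.004 by limma). Nfe2l1, a factor related to NRF2, was lower at −0.54 (adjusted p = 0.000756 by limma); these 2 were also chosen after their values were seen.

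Of 12 tested genes of glutathione uptake and turnover, 6 were lower and 1 higher, so 58.3% were called, near the 53.1% of all genes tested. Chac1, which degrades glutathione and is induced by amino acid stress, fell from 28.0 ± 5.35 to 6.17 ± 1.05 FPKM (SD, n = 6), a log2 fold change of −2.01 (adjusted p = 4.93e-07 by limma). Slc3a2, a subunit of the cystine transporter, fell from 105.6 ± 22.2 to 61.2 ± 9.49 FPKM (SD, n = 6; log2 fold change −0.77, adjusted p = 0.000452 by limma). Its partner Slc7a11, an NRF2 target named after its values were seen, had 4.64 ± 0.563 FPKM in CTR and 2.61 ± 2.69 FPKM in dKO (SD, n = 6), and dKO replicate 5 was at 7.95 FPKM. The log2 fold change of Slc7a11 was −0.87 (adjusted p = 0.028 by limma), or −1.18 without dKO replicate 5. The call was lost in 8 of 22 alternatives, among them the fits without CTR replicate 3 or 6 and without dKO replicate 2, 4 or 6. Ggt7 was lower, at −0.77, whereas Ggt1, which splits extracellular glutathione, was higher at 0.98 (adjusted p = 4.73e-05 and 9.05e-05 by limma). Ggt1 had only 0.468 ± 0.171 FPKM (SD, n = 6) in CTR, and its log2 fold change was 2.05 with a pseudocount of 0.01. Of 13 other glutathione transferases tested, 6 were lower and 1 higher (53.8% called, again near the 53.1% of all genes tested).

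Of 8 heme and iron genes tested, 5 were higher and 2 lower (87.5% called, beside 53.1% of all genes tested). Fth1 and Ftl1, the ferritin chains that store the iron freed by heme oxygenase, and the heme transporter Slc48a1 were chosen after their values were seen, and in all 3 the groups did not overlap. Fth1 was at 4174 ± 685 FPKM in CTR and 7001 ± 854 FPKM in dKO (SD, n = 6; log2 fold change 0.75, adjusted p = 0.000249 by limma), and it lost its call where no genes were filtered out (adjusted p = 0.104). With quantile normalization the log2 fold change of Fth1 was 0.49. Ftl1 rose by 0.86 and Slc48a1 by 0.68 on the log2 scale (adjusted p = 1.7e-05 and 9.96e-06 by limma). These genes are also active in macrophages, of which 9 of 10 markers were higher and 1 lower, while 10 of 10 endothelial markers were higher. The part of macrophages in these rises was not tested. Of 9 tested NADPH genes 2 were higher and 1 lower, and of 22 other thiol enzymes 5 were higher and 6 lower. Glrx, glutaredoxin, rose from 3.96 ± 1.28 to 12.4 ± 3.44 FPKM (SD, n = 6; log2 fold change 1.44, adjusted p = 5.69e-05 by limma), and Sesn2, a stress-induced sestrin, fell from 35.0 ± 5.84 to 18.4 ± 1.68 FPKM (SD, n = 6; log2 fold change −0.88, adjusted p = 3.23e-05 by limma). Among 12 other NRF2 target enzymes 3 were higher and 3 lower, and Ephx1, microsomal epoxide hydrolase, rose from 46.1 ± 6.18 to 117 ± 16.9 FPKM (SD, n = 6; log2 fold change 1.33, adjusted p = 1.84e-06 by limma).

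Of 10 tested enzymes that produce oxidants, 7 were higher and 1 was lower, beside 20.4% higher and 32.6% lower among all genes tested. Their median log2 fold change was 0.96, beside −0.10 over all genes tested. The higher ones included the subunits of the phagocyte NADPH oxidase. Cybb, its catalytic subunit, had 7.96 to 11.6 FPKM in CTR and 18.3 to 63.1 FPKM in dKO libraries, and the groups did not overlap (log2 fold change 1.38, adjusted p = 0.000863 by limma). Cyba, the partner of Cybb and of Nox4, had 85.0 to 124 FPKM in CTR and 191 to 264 FPKM in dKO libraries (log2 fold change 1.08, adjusted p = 5.21e-06 by limma). Ncf1, Ncf4 and Rac2, which assemble with them, had log2 fold changes of 1.10, 1.30 and 1.00 (adjusted p = 5.61e-05, 2.31e-05 and 9.3e-05 by limma). Nox4, the main oxidase of endothelial cells, did not pass the test, with 12.1 to 26.0 FPKM in CTR and 16.1 to 27.2 FPKM in dKO libraries (log2 fold change 0.10, adjusted p = 0.643 by limma; −0.01 without CTR replicate 1). Cybb, Ncf1, Ncf4 and Rac2 are known mainly from myeloid and other blood cells, whereas Cyba is used more widely, and 9 of 10 macrophage and 5 of 5 tested leukocyte markers were higher in dKO. Ncf1 and Rac2 were highest in dKO replicate 3, the library with the highest summed macrophage markers (5359 FPKM), and Cybb was highest in dKO replicate 5. The part of myeloid cells in these rises was not tested.

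**Figure D4:**
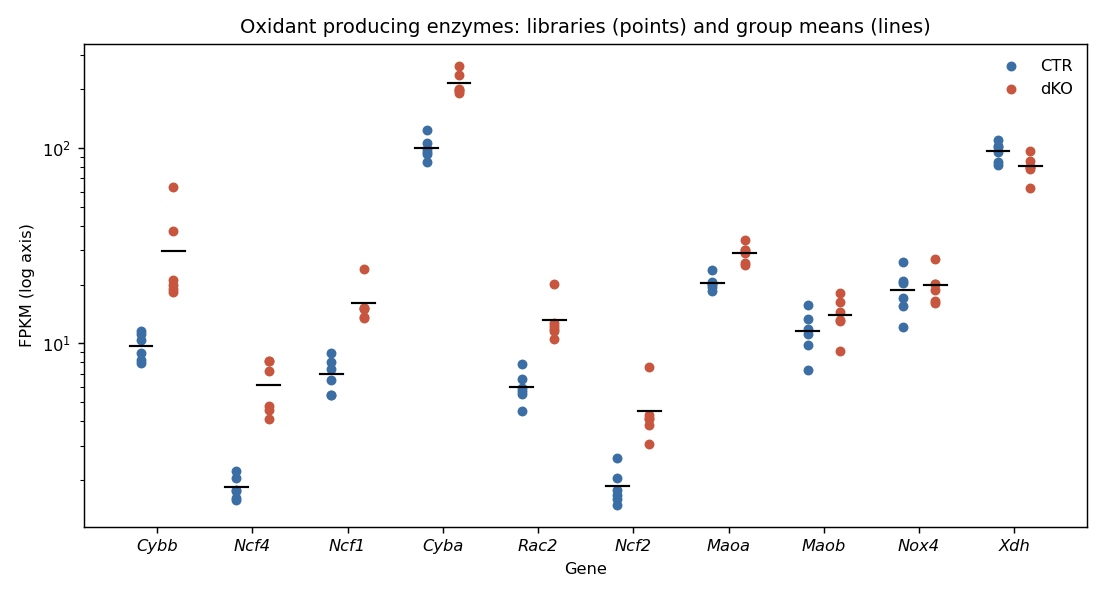
FPKM on a log axis of the 10 tested oxidant producing enzymes in each CTR and dKO library (points) with the group mean (line, n = 6 a group), ordered by fold change. The 5 subunits of the phagocyte oxidase and Rac2 at the left do not overlap between the groups, nor does Maoa, while Nox4 does.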

How the data were processed

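The deposited table holds 1 FPKM value per gene and library, computed by the authors. The paper's methods name STAR, Trimmomatic and sambamba, whereas the submitters' processing notes list Bowtie2 2.2.3, HISAT2 2.1.0 and TopHat2. Both name the build mm39. The labels' protocol speaks of retinas, so the pipeline is unsure. Use of strand is not given in the sources used here. The table holds gene identifiers, of which 27706 (96.6%) matched GENCODE M39.

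Genes were kept if 6 or more of the 12 libraries reached 1 FPKM. log2(FPKM + 1) was compared by limma 3.58.1 (lmFit, eBayes with trend) in R 4.3.3, with Benjamini-Hochberg adjustment over 12467 genes. Fold changes are on that log2 scale, which understates low genes. Single values were also compared by a two-sided exact permutation test over all 924 assignments of 12 libraries to groups of 6. Whole fragments were recovered from the FPKM for 100% of 28689 genes (tolerance 0.02 fragments), and limma-voom on them called 6609 genes, against 6614. For a gene of 2 kb, a single fragment corresponded to 0.0279 to 0.0322 FPKM. Tested on simulated data, the steps called 194 of 197 genes changed by a log2 fold of 1 and 14 of 12380 unchanged ones. That simulation gave all genes the same dispersion, drew libraries independently and changed few genes, while 53.1% of the real genes tested were called. Its rates therefore check the steps and are not error rates for these libraries. Within groups, all 30 pairs of libraries differed by more than sampling noise (chi-square per degree of freedom of at least 11.4).

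The 36 genes, the lists and the tests were chosen with earlier results of these data known. Values in every library are given for regulators and for genes called, over 1.5-fold and without overlap. Of the other pathway genes, the 8 largest rises and up to 8 largest falls that met the same criteria were named, and Cybb, Cyba, Ncf1 and Nox4 in any case. Alternatives were pseudocounts of 0.1 and 0.01, no filter or 5 FPKM, TPM, median-of-ratios and quantile scaling, a replicate block, voom, the permutation test, and fits without each library. The fit without replicate 1 of both groups was added after seeing the data. Copies were searched with BLAST 2.17.0 and promoters with Python 3.11.15.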

Additional observations from a re-analysis of the deposited data

Results flagged for a closer look

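Single libraries stood apart from the other 5 of their group in 15 of 122 groups of 6 values (61 genes, 2 groups each), by the gap between the extreme library and its neighbour relative to the range of the group (Dixon's criterion). For independent, normally distributed values the criterion would flag about 1 in 20 groups. These genes share the same libraries and some were chosen after their values were seen, so the count cannot be judged against that rate. Among the 36 antioxidant genes it was 9 of 72 groups, and 5 of the 15 were in dKO replicate 1.

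In dKO replicate 1, Txnrd1 was at 89.4 FPKM (others 33.9 to 49.4), Srxn1 at 65.8 (24.9 to 37.2) and Gsta4 at 7.38 (2.82 to 4.18). The same library stood apart for Ggt1, at 3.34 FPKM (1.47 to 2.05), and for Mafk, at 22.8 FPKM (17.8 to 19.4). In dKO replicate 5, Sod2 was at 78.1 FPKM (17.8 to 23.1), Nfe2l1 at 84.0 (58.2 to 63.0) and Slc7a11 at 7.95 (0.787 to 2.62). In dKO replicate 3, Ncf1 was at 24.1 FPKM (13.5 to 15.2) and Rac2 at 20.04 FPKM (10.5 to 12.8), and in dKO replicate 6, Gpx4 was at 240.0 FPKM (175 to 196). Of the CTR libraries, Gpx3 was at 1706 FPKM (337 to 848) and Sod2 at 23.0 FPKM (17.8 to 19.7) in replicate 4. Prdx2 was at 42.7 FPKM (29.5 to 34.2) in CTR replicate 1, and Prdx6 at 176 FPKM (150.1 to 153) in CTR replicate 6.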

How the results depend on the processing

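Of the 15 antioxidant genes called, 11 kept their call in all 23 alternatives, none of the 15 changed sign, and Blvrb, Gclc, Cat and Prdx1 lost it in at least 1. Between 12 and 18 of the 36 genes were called, 4 to 7 with over 1.5-fold, and 43 to 61 of the other pathway genes. The 43 came from the filter of 5 FPKM, where only 71 of those pathway genes were tested. Without a filter, 120 were tested and 47 called. Of 21 genes not called, 7 changed sign. With median-of-ratios scaling the log2 fold change of Keap1 was 0.051, of Sod1 0.039 and of Osgin1 0.015. With quantile normalization that of Keap1 was 0.018, Txnrd1 −0.027, Prdx6 −0.065, Gpx4 −0.021 and Osgin1 0.026, and with TPM that of Txnrd1 was −0.041. Leaving out single libraries, Keap1 ranged from −0.077 to 0.0023, Txnrd1 from −0.16 to 0.12, Srxn1 from −0.0083 to 0.28, Prdx6 from −0.050 to 0.15, Nox4 from −0.013 to 0.19 and Sp3 from −0.18 to −0.11, where Sp3 passed the test only without CTR replicate 6. Without replicate 1 of both groups, an alternative chosen after seeing the data, Keap1 was at 0.014, Txnrd1 at −0.054 and Prdx6 at −0.060. The cause was not tested. The labels do not say whether same-numbered libraries were paired. Same-numbered deviations correlated at −0.11 to 0.57, and differently numbered ones at −0.57 to 0.54. Of the libraries, 2 of 6 CTR and 2 of 6 dKO correlated best with their own number. Such correlations cannot settle whether libraries were paired. With the replicate block, 16 of the 36 were called, with Txn1 added, and 61 other pathway genes. The log2 fold change of Ggt1, a low gene, was 0.98 with a pseudocount of 1, 1.85 with 0.1, 2.05 with 0.01, 2.05 with voom and 1.5 with TPM. Depth limits the low genes most, such as Gsta4 with 51 fragments in its shallowest library, and the part of counting error in their spread was not tested.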
